A study of Mus musculus with 18 samples.

Results

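The genes examined encode the enzymes by which mitochondria oxidise fatty acids: 35 genes chosen by symbol from the known pathway, out of 53445 gene rows in the inguinal and brown fat files. All 35 were found in all 18 samples. They comprise 5 genes of the carnitine shuttle, 8 acyl-CoA dehydrogenases, 5 genes for the steps from hydration to thiolysis, 3 auxiliary enzymes for unsaturated chains, 3 genes for electron transfer to ubiquinone, 5 long-chain acyl-CoA synthetases, 5 acyl-CoA thioesterases and malonyl-CoA decarboxylase. RNA sequencing was carried out on adipocytes of inguinal white fat (iWAT, n = 6), adipocytes of epididymal white fat (eWAT, n = 6) and whole brown adipose tissue (BAT, n = 6). All mice were wild-type C57BL/6J males (strain C57BL/6 in the sample labels) aged 16 weeks that consumed regular chow, and no group was treated. The white fat was digested with collagenase and the floating adipocytes were collected, whereas BAT was frozen as tissue, so depot and preparation cannot be told apart in any comparison with BAT. Sample titles carry a number that was read as the mouse, and many mice gave more than 1 depot.

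Fatty acids are activated to acyl-CoA by synthetases, carried into the mitochondrial matrix as carnitine esters by the CPT1 and CPT2 enzymes, and shortened in a repeated cycle of dehydrogenation, hydration, dehydrogenation and thiolysis. Malonyl-CoA, the first intermediate of fatty acid synthesis, inhibits CPT1, and the electrons taken by the acyl-CoA dehydrogenases reach ubiquinone through the electron transfer flavoprotein. In brown adipocytes this pathway feeds the respiratory chain, whose proton gradient the uncoupling protein UCP1 dissipates as heat.

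The deposited values are read counts and RPKM (reads scaled to the row length and to the sample's total reads), with 22929576 to 34512470 reads behind the RPKM of each sample. In iWAT and BAT a row is a gene with all its exons merged, and in eWAT a row is 1 transcript. The most-read transcript was used for eWAT. The merged row was longer than that transcript in 32 of 35 members, by a median ratio of 1.43, and the same row was used in all 3 depots in 3 members (*Eci1*, *Acsl3* and *Acot2*). A longer row with the same reads has a lower RPKM, so RPKM levels are compared with care between genes and between eWAT and the other depots. *Ucp1*, which defines brown adipocytes, was between 969 and 1509 RPKM in BAT, between 0.494 and 5.76 in iWAT and between 0.127 and 0.551 in eWAT. Summed over 8 skeletal muscle genes, the BAT sample of mouse 12 reached 1603 RPKM, against at most 148 in the other BAT samples. Summed over 6 macrophage genes, the eWAT sample of mouse 15 reached 2018 RPKM, against at most 484 in the other eWAT samples. The lowest of the eWAT sums, 139.5 RPKM, was above the highest in iWAT (135.3) and in BAT (47.9). Summed over 5 epididymis genes, the eWAT samples of mice 14 and 15 were highest, at 93.4 and 83.7 RPKM, against a median of 1.80 in eWAT. All 5 of these genes were at 0 in every iWAT sample.

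Most of the oxidation genes were higher in BAT than in iWAT. With edgeR's quasi-likelihood test, 29 of the 34 tested members were higher in BAT at an adjusted p under 0.05 (here: called), 2 were lower, and 3 did not pass the test. Over all 19733 rows tested, 33.6% were called higher in BAT and 34.0% higher in iWAT. At least a 2-fold higher level in BAT was called for 27 members, against 17.1% of all rows. *Cpt1c* and *Acot1*, counted among the 29 and the 27, entered the test only through their BAT samples. The median log2 fold change (BAT minus iWAT) was 1.56 over the members and -0.01 over all rows. In deposited RPKM, 28 of the 35 members were higher in every BAT sample than in every iWAT sample, against 16.0% of the rows tested. The reads counted on the 35 genes made up 5465 ± 437 reads per 1000000 in iWAT (SD, n = 6) and 13040 ± 568 in BAT (SD, n = 6). Without the muscle-rich BAT sample of mouse 12, 29 members were still higher in BAT. In bulk samples, more cells of a type and more RNA per cell cannot be told apart.

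**Figure D1:**
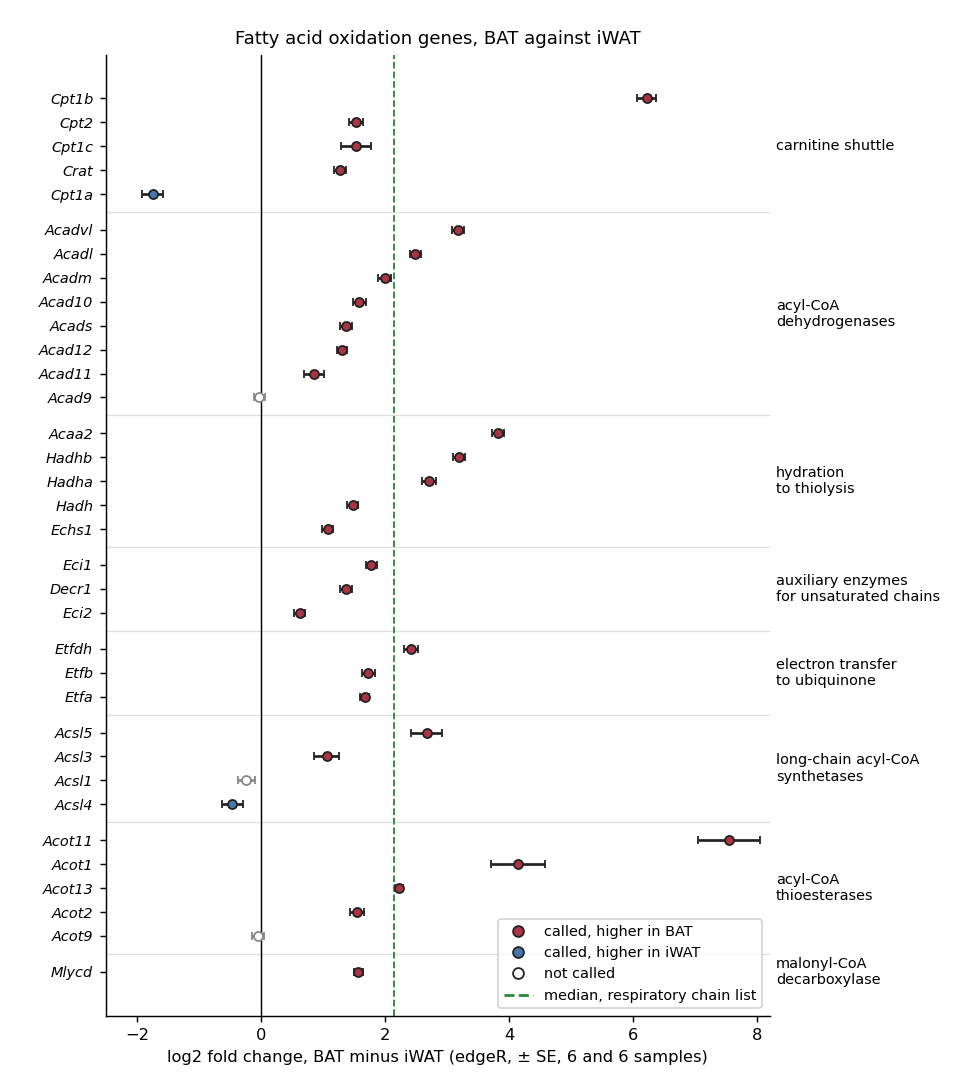
Log2 fold change (BAT minus iWAT, horizontal axis) with its standard error for the 34 tested genes, grouped by role on the vertical axis, from 6 samples per depot. Filled red points were called higher in BAT (29 genes), blue points higher in iWAT (2) and open points were not called (3); the dashed line is the median of 14 respiratory chain and citrate synthase genes.

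In the carnitine shuttle, the 2 best-known isoforms of carnitine palmitoyltransferase 1 went in opposite directions. *Cpt1b* (mm9, chr15:89246836-89256294, minus strand), the isoform known from muscle, had 1.67, 2.77 and 3.06 RPKM in iWAT (lowest, median and highest sample). It had 144, 164 and 182 RPKM in BAT. The groups were far apart, with a log2 fold change (BAT minus iWAT) of 6.22 ± 0.16 (SE) and an adjusted p of 6.8e-12, which is a 74.5-fold difference. *Cpt1a* (mm9, chr19:3322330-3399153, plus strand), the isoform known from liver, had 4.0, 6.27 and 9.25 RPKM in iWAT and 1.14, 1.47 and 1.95 RPKM in BAT. Its groups did not overlap either, and its log2 fold change was -1.75 ± 0.17 (SE, adjusted p = 4.6e-07). *Cpt2*, the matrix enzyme that returns the acyl group to CoA, was higher in BAT by 1.53 ± 0.11 on the log2 scale. *Crat*, the carnitine acetyltransferase, was higher by 1.28 ± 0.10. *Cpt1c*, an isoform known from neurons, was called higher in BAT as well, but at low levels of at most 12 reads per iWAT sample and 32 per BAT sample. It passed the filter on reads only through its BAT samples.

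Skeletal muscle also expresses *Cpt1b*, and the muscle gene list was called higher in BAT for 6 of its 7 tested genes. The BAT sample of mouse 12, which had the highest level of these genes, had the lowest *Cpt1b* of the BAT samples (144 RPKM). The BAT samples of mice 7 and 13 had *Acta1*, the skeletal actin gene, at 0.262 and 0.629 RPKM, and their *Cpt1b* was 162 and 166 RPKM. The part of muscle in the *Cpt1b* difference was not tested. A second limit is positional. Of the annotated exonic bases of *Cpt1b*, 81.4% are shared on the same strand with read-through transcripts of *Chkb*, the neighbouring choline kinase gene, and the merged *Chkb* row takes in *Cpt1b*. The *Chkb* row held 619 to 972 reads per iWAT sample and 15781 to 19796 per BAT sample. In each BAT sample it exceeded the *Cpt1b* row by 2639 to 3717 reads, against 465 to 774 in iWAT, so reads of these rows cannot be assigned to a single gene.

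The ratio of *Cpt1b* to *Cpt1a* put the depots in a fixed order. In RPKM it was 0.256, 0.442 and 0.641 for the lowest, median and highest iWAT samples. The eWAT samples had 0.0204, 0.0441 and 0.0494, and the BAT samples 88.1, 111 and 136. No depots overlapped. The mean log2 ratio was 6.75 ± 0.22 for BAT, -1.22 ± 0.52 for iWAT and -4.68 ± 0.47 for eWAT (SD, n = 6 each). The difference was 7.97 between BAT and iWAT, 11.4 between BAT and eWAT, and 3.45 between iWAT and eWAT. Each of the 3 had p = 0.0022 in a two-sided exact permutation test (Benjamini-Hochberg adjusted over the 3 comparisons: 0.0022), the smallest p that 6 against 6 samples allow. *Cpt1a* was thus the higher isoform in all 12 white fat samples and *Cpt1b* in all 6 BAT samples. The lengths of the *Cpt1b* rows agree to within 1 base between the files, but the merged *Cpt1a* row is 1.80 times as long as its eWAT row, and this enters each ratio that involves eWAT.

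**Figure D2:**
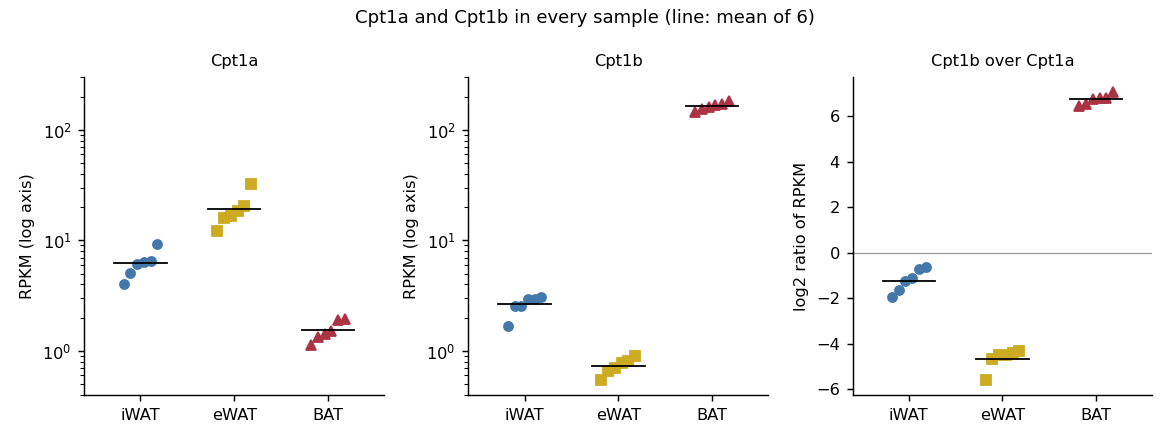
RPKM of *Cpt1a* and *Cpt1b* (log axes) and the log2 ratio of *Cpt1b* to *Cpt1a* in each of the 18 samples by depot, with the mean of 6 samples as a line. *Cpt1a* is lowest in BAT and *Cpt1b* highest, and the ratio is above 0 in the BAT samples and below 0 in all white fat samples.

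Promoter windows are printed for the members on which the results turn, from RefSeq (GRCm38.p6), each running from 250 bases before a gene's start to 50 after it. Windows were matched for 29 of 35 members, 33 windows in all. *Cpt1b*, *Crat*, *Acad9*, *Acaa2*, *Decr1* and *Acot13* had none in that table. Exact matches on both strands were counted for TCAAGGTCA, an element bound by estrogen-related receptors, and the direct repeat of AGGTCA with 1 free base between its copies, bound by PPAR and RXR. The first was found in 1 member window, that of *Acsl6*, and in 0.423% of 32851 windows. The second was found in 0 member windows and in 0.0396% of all windows. *Cpt1a*, the shuttle gene that was lower in BAT, has the window chr19:3323051-3323350 on the plus strand. It holds neither element, and is in lower case throughout.
Cpt1a: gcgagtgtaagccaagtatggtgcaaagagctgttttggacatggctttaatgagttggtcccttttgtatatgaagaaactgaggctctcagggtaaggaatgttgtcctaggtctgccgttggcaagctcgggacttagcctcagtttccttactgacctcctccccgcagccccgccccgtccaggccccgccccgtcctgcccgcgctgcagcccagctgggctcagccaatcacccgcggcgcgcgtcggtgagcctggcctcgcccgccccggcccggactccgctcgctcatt

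Of the 8 acyl-CoA dehydrogenases, which take the first electrons of each cycle, 7 were higher in BAT than in iWAT and *Acad9* did not pass the test. Among *Acadvl*, *Acadl*, *Acadm* and *Acads*, the difference was larger for the enzymes that act on longer chains. The other dehydrogenases, given below, were not placed in this order, which covers only the genes named. *Acad9*, *Acad11* and *Acad12* had smaller log2 fold changes than *Acads*, and that of *Acad10* lay between those of *Acads* and *Acadm*. *Acadvl*, for very long chains, had 50.2, 55.6 and 59.1 RPKM in iWAT (lowest, median and highest) and 377, 416 and 435 RPKM in BAT, a log2 fold change (BAT minus iWAT) of 3.18 ± 0.09. *Acadl*, for long chains, had 83.4, 91.5 and 101 RPKM in iWAT and 402, 432 and 453 in BAT, with 2.49 ± 0.09. *Acadm*, for medium chains, had 95, 110 and 120 RPKM in iWAT and 326, 355 and 379 in BAT, with 1.99 ± 0.10. *Acads*, for short chains, had 39.4, 45.6 and 58.6 RPKM in iWAT and 91.9, 99.9 and 110 in BAT, with 1.37 ± 0.09 (± SE throughout). None of these groups overlapped, and the steps between the genes were not tested. Exons of *Acadvl* overlap the opposite-strand gene *Dvl2* over 42.9% of their bases, and the strand setting of the counting is not given in the sources used here.

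The other dehydrogenases were expressed at lower levels. *Acad10* had a log2 fold change of 1.59 ± 0.10, *Acad12* of 1.31 ± 0.08 and *Acad11* of 0.85 ± 0.16. *Acad10* and *Acad12* lie next to each other on chromosome 5 and resemble each other, with 24.3% of the 31-base words of *Acad10* and 37.9% of those of *Acad12* found elsewhere in the genome, so reads may be split between them. Of the words of *Acadm* and *Acad9*, 29.2% and 17.1% are found elsewhere. *Acad9*, also known as an assembly factor of respiratory complex I, was 4.48 ± 0.37 RPKM in iWAT and 3.64 ± 0.28 in BAT (SD, n = 6). Its log2 fold change was -0.03 ± 0.09 with an adjusted p of 0.81, and its groups overlapped. With no TMM factors or with limma (both described below), *Acad9* was called lower in BAT, as were *Acsl1* and *Acot9*.

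The *Acadm* window, chr3:153944594-153944893 on the minus strand, is shown because it is 1 of 2 member windows with AAGGTCA, the core of the first element, searched for after the data had been seen (capitals, read on the other strand). The other is that of *Acsl6*. Of all windows, 4.72% hold these letters.
Acadm: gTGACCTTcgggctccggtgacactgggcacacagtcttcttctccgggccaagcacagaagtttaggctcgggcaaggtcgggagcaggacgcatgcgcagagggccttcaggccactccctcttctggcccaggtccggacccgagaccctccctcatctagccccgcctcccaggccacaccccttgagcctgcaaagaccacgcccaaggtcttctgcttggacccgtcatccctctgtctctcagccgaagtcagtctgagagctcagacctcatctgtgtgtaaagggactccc

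The palindromic element bound by NRF1, which reads the same on both strands, was added in the same way. It was found in windows of 3 members and in 0.971% of all windows. The members are *Etfdh* (chr3:79628718-79629017), *Acad10* (chr5:121660461-121660760) and *Acad12* (chr5:121618889-121619188), all on the minus strand. They are shown with the element in capitals. The *Acad10* and *Acad12* windows resemble each other around the element, so these 2 are not independent finds.
Etfdh: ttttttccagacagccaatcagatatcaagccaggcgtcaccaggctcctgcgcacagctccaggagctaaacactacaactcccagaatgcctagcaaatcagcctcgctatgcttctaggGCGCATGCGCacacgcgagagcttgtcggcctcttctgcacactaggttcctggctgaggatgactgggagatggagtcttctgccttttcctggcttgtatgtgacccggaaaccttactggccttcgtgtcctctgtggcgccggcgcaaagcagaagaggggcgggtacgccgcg
Acad10: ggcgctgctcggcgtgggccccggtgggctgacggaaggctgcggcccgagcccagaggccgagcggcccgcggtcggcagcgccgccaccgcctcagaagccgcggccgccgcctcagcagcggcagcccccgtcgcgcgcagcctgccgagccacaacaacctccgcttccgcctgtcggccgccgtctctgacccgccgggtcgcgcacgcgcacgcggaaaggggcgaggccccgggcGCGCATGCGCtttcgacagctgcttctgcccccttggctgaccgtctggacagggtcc
Acad12: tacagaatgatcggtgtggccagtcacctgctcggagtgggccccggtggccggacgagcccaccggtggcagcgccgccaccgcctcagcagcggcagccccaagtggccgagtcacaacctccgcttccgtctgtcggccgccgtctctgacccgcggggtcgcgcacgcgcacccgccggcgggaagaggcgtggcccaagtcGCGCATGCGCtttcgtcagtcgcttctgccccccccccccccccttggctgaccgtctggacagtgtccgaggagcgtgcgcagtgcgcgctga

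All 5 genes for hydration, dehydrogenation and thiolysis were at least 2-fold higher in BAT. *Acaa2*, the thiolase for medium chains, had 55.8, 64.1 and 74.5 RPKM in iWAT (lowest, median and highest) and 668, 749 and 844 RPKM in BAT. Its log2 fold change of 3.82 ± 0.10 (SE, adjusted p = 6.8e-12) was above that of 98.6% of all rows tested. *Hadha*, the alpha subunit of the trifunctional protein for long chains, had 20.8, 21.7 and 24.3 RPKM in iWAT and 109, 118 and 133 in BAT, with 2.71 ± 0.11. *Hadh*, the dehydrogenase for shorter chains, was higher in BAT by 1.48 ± 0.09, and *Echs1*, the short-chain hydratase, by 1.08 ± 0.09. Within this group the long-chain enzymes and the thiolase therefore lay above the short-chain enzymes.

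*Hadhb*, the beta subunit of the trifunctional protein, had a log2 fold change of 3.19 ± 0.09. Its own row held 714 to 1169 reads per iWAT sample and 6563 to 8548 per BAT sample, against 4275 to 6680 and 28840 to 39743 on *Hadha*. Of the 31-base words of the *Hadhb* transcript, 87.6% occur elsewhere in mm9, most often on chromosome 2, at a row named LOC100504946. That row held 41404 to 53785 reads per BAT sample, 5036 to 7494 per iWAT sample and 4538 to 5329 per eWAT sample. It took 84.9 to 86.8% of the reads of both rows in BAT, 86.2 to 88.0% in iWAT and 87.4 to 89.3% in eWAT. Its log2 fold change (BAT minus iWAT) was 3.09 ± 0.11, close to that of *Hadhb*. Reads on both rows together were 1.12 to 1.39 times those on *Hadha* in iWAT and 1.57 to 1.74 times in BAT, whereas reads on the *Hadhb* row alone were 0.138 to 0.176 and 0.214 to 0.255 times. Which locus these reads come from was not tested, and the level of *Hadhb* is uncertain for this reason.

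**Figure D3:**
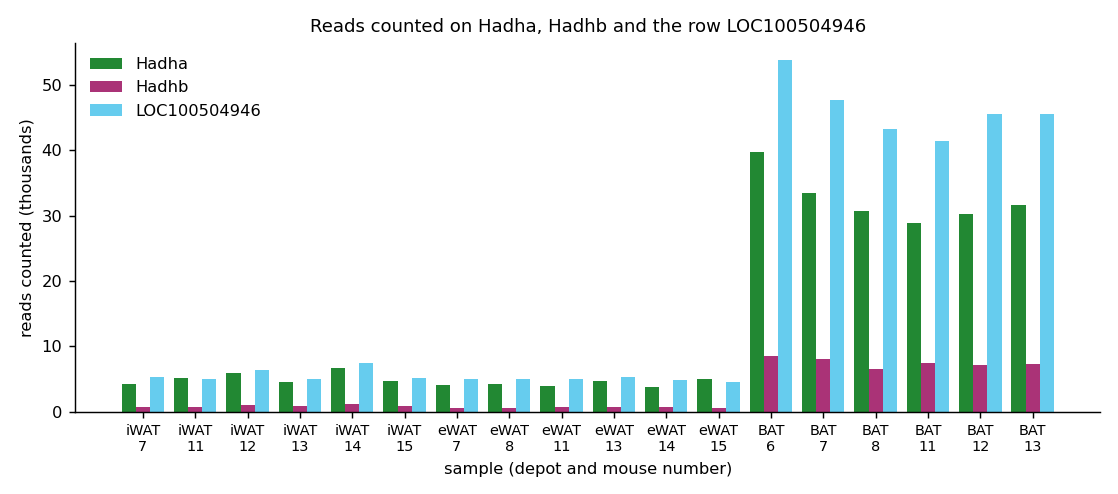
Reads counted (vertical axis, in units of 1000) on *Hadha*, *Hadhb* and the row LOC100504946 in each of the 18 samples, labelled by depot and mouse number. The LOC100504946 row holds more reads than the *Hadhb* row in every sample, and all 3 rows are highest in the 6 BAT samples.

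*Hadha* and *Hadhb* are read in opposite directions from neighbouring starts on chromosome 5, and both were higher in BAT. Their promoter windows overlap by 228 bases. The *Hadhb* window, chr5:30155003-30155302 on the plus strand, is shown with the bases shared with the *Hadha* window (chr5:30154931-30155230, minus strand) in capitals.
Hadhb: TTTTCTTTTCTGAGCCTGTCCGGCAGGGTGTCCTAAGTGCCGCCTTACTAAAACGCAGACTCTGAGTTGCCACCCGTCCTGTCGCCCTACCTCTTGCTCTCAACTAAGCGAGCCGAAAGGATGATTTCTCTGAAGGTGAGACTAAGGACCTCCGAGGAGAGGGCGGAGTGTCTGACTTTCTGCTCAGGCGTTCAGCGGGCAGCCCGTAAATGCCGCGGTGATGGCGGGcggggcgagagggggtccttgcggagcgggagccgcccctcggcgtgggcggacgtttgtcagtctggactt

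The 3 auxiliary enzymes, which reposition or reduce unsaturated bonds so that the cycle can go on, were all called higher in BAT. *Eci1*, an enoyl-CoA isomerase, had 59.8, 70.1 and 84.4 RPKM in iWAT and 185, 193 and 231 RPKM in BAT, and a log2 fold change of 1.78 ± 0.09. *Decr1*, the dienoyl-CoA reductase, had 1.38 ± 0.10. *Eci2*, the other isomerase, had 0.62 ± 0.08, the smallest difference among the members called higher in BAT. Words of 31 bases shared with *Eci3* and other places made up 12.1% of the *Eci2* transcript.

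The 3 electron transfer genes were at least 2-fold higher in BAT. *Etfdh*, the oxidoreductase that hands electrons to ubiquinone, had 12, 12.7 and 14.2 RPKM in iWAT and 48.3, 57.2 and 65.1 in BAT, with a log2 fold change of 2.42 ± 0.11. *Etfb* had 1.73 ± 0.11 and *Etfa* 1.67 ± 0.08, so both flavoprotein subunits differed by similar amounts. The intervals of ± 1 SE of these subunits overlap. Of the 31-base words of *Etfa*, 31.4% are found elsewhere in the genome.

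The 5 synthetases went different ways. *Acsl1*, the main synthetase of fat cells, had 167, 215 and 247 RPKM in iWAT and 121, 145 and 196 RPKM in BAT. Its groups overlapped, and its log2 fold change of -0.24 ± 0.14 did not pass the test (adjusted p = 0.14). It was called lower in BAT with the mice as a block (-0.34, adjusted p = 0.033), and also without the BAT sample of mouse 8 (-0.34, adjusted p = 0.014). *Acsl4*, which prefers arachidonic acid, was lower in BAT with a log2 fold change of -0.46 ± 0.17 (adjusted p = 0.029), but lost the call without the iWAT sample of mouse 11 (-0.31, adjusted p = 0.055) and without any 1 of the BAT samples of mice 7, 11, 12 and 13. *Acsl3* was higher in BAT by 1.06 ± 0.21. *Acsl5* had 5.44, 5.91 and 6.39 RPKM in iWAT and 17.2, 27.4 and 54.3 RPKM in BAT, with 2.67 ± 0.26. *Acsl6* was not tested: it had 0 reads in 5 of 6 iWAT samples, 3 of 6 eWAT samples and 1 of 6 BAT samples. A count of 0 allows up to 3 reads, or 0.0061 to 0.0195 RPKM in these samples, for counting error only. The highest *Acsl6* value, 0.104 RPKM from 46 reads, was in the muscle-rich BAT sample of mouse 12.

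*Acsl1* made up most of the summed RPKM of the 5 synthetases in every depot. Its share was 78.6 ± 7.29% for BAT, 93.1 ± 1.15% for iWAT and 93.6 ± 3.34% for eWAT (SD, n = 6). *Acsl5* made up 16.5 ± 7.28% for BAT, 2.64 ± 0.33% for iWAT and 2.88 ± 1.57% for eWAT. The lowest *Acsl5* share in BAT was 10.2%, above the highest in eWAT (5.99%) and in iWAT (3.21%). In reads in place of RPKM, the *Acsl5* shares were 8.87% for BAT, 1.28% for iWAT and 3.09% for eWAT, and the lowest BAT share (5.17%) was below the highest in eWAT (6.38%). The eWAT sample of mouse 15, rich in macrophage genes, had the lowest *Acsl1* share of that depot (87.1%).

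Of the 5 thioesterases, which release free fatty acids from acyl-CoA, 4 were higher in BAT and *Acot9* was not called. *Acot11* (mm9, chr4:106417160-106477603, minus strand), known as the brown fat-inducible thioesterase, had 0.238, 0.301 and 1.05 RPKM in iWAT and 32.2, 63.7 and 114 RPKM in BAT. Its log2 fold change of 7.55 ± 0.50 (SE, adjusted p = 1.1e-08) was the largest among the members and above that of 99.8% of all rows tested. Its BAT samples varied widely, with 114, 61.9 and 82.4 RPKM in mice 6, 7 and 8 and 32.2, 57.5 and 65.5 in mice 11, 12 and 13. *Fam151a* overlaps 20.8% of its exonic bases on the opposite strand. *Acot13* had 16.0, 16.8 and 17.7 RPKM in iWAT and 58.5, 64.0 and 74.9 in BAT, with 2.22 ± 0.07. *Acot2*, the mitochondrial form, was higher by 1.55 ± 0.11, and 37.2% of its 31-base words are found elsewhere. *Acot1*, its cytosolic relative, was higher by 4.14 ± 0.44 from at most 15 reads per iWAT sample, and 51.8% of its 31-base words are also found elsewhere, chiefly at *Acot2*. *Acot9* had 7.48 ± 1.03 RPKM in iWAT and 6.02 ± 0.55 in BAT (SD, n = 6), with a log2 fold change of -0.05 ± 0.10 and an adjusted p of 0.71. It shares sequence with *Acot10*, whose row held 508 to 868 reads in iWAT and 499 to 613 in BAT.

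*Mlycd*, the decarboxylase that removes malonyl-CoA, had 7.78, 8.36 and 9.42 RPKM in iWAT and 19.1, 20.9 and 23.2 in BAT. Its log2 fold change was 1.57 ± 0.07, with no overlap between the groups.

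**Figure D4:**
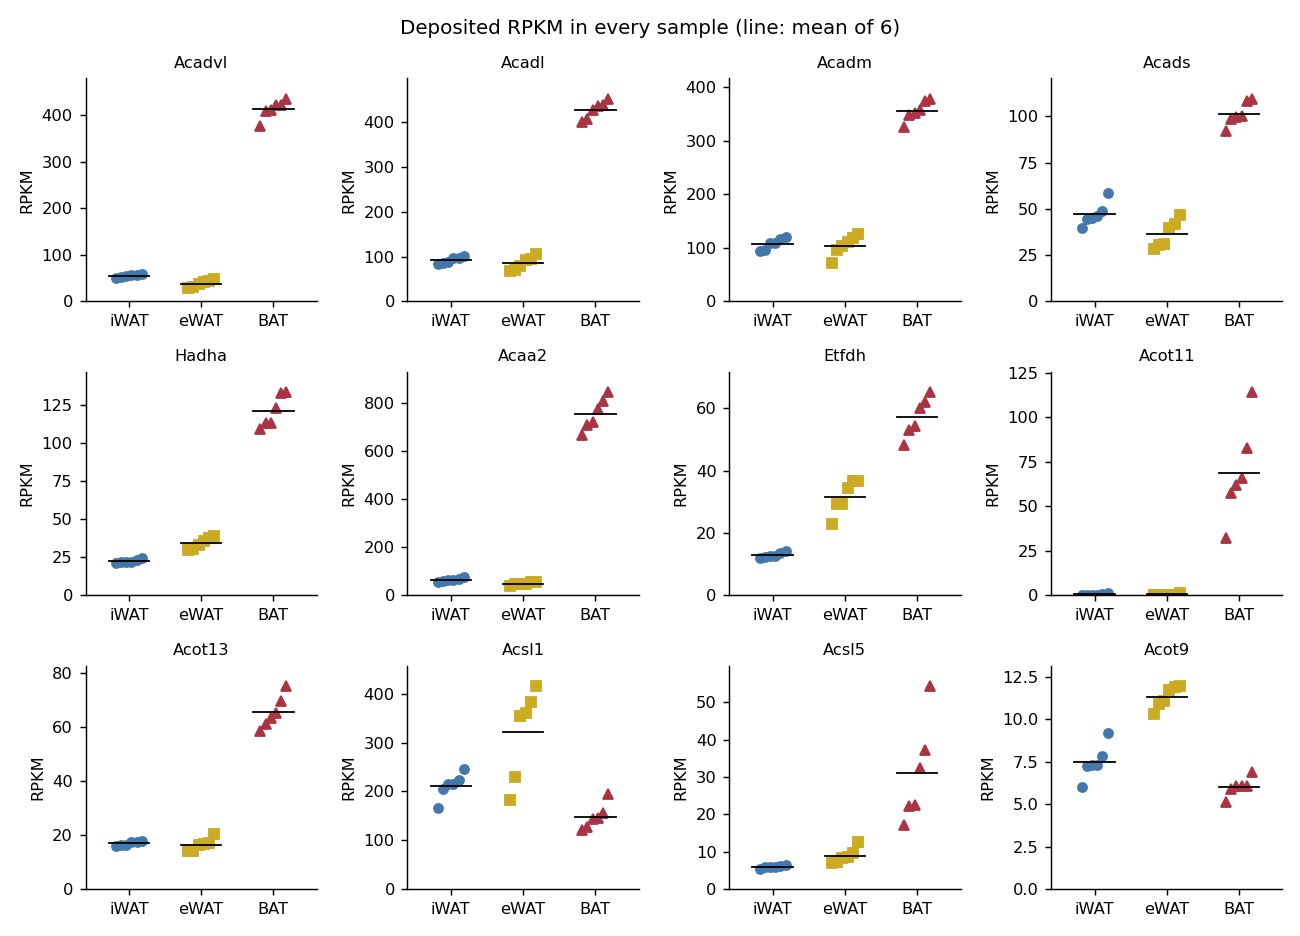
Deposited RPKM (vertical axes, from 0) of 12 of the genes in each of the 18 samples by depot, with the mean of 6 samples as a line. *Acadvl*, *Acaa2*, *Acot11* and *Acot13* separate BAT from both white depots, whereas *Acsl1* and *Acot9* are not higher in BAT; the eWAT rows are shorter for many of the genes, which raises their RPKM.

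Genes around the pathway were read from lists, which were chosen with earlier results of these data known. *Slc25a20*, the carrier that exchanges acylcarnitine for carnitine, was higher in BAT than in iWAT by 2.82 ± 0.14 on the log2 scale, and *Slc22a5*, the carnitine transporter of the plasma membrane, by 0.39 ± 0.13. Both acetyl-CoA carboxylases, which make malonyl-CoA, were also higher in BAT: *Acaca* by 2.04 ± 0.26 and *Acacb*, the mitochondria-associated form, by 3.53 ± 0.23. Of 7 regulators, 1, *Ppard* (-0.76 ± 0.15), was lower in BAT and 6 were higher. The 6 higher in BAT include *Ppara* (4.07 ± 0.16), *Pdk4* (3.15 ± 0.29), *Ppargc1a* (2.68 ± 0.35) and *Esrra* (2.30 ± 0.09). These encode a fatty acid-sensing receptor, a kinase that restrains pyruvate oxidation, a coactivator of mitochondrial genes and an estrogen-related receptor. Of 9 peroxisomal oxidation genes, 3 were higher, 3 lower and 3 not called, and of the 4 tested ketone body genes, 2 were higher and 2 lower. The share over all rows was 33.6% higher and 34.0% lower in BAT, so the peroxisomal counts lie at the background.

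The respiratory chain gives a measure of mitochondrial gene expression in general. All 14 of 14 respiratory chain and citrate synthase genes were called higher in BAT than in iWAT, with a median log2 fold change of 2.15 and a range from 1.58 to 2.73. Of the 34 tested oxidation genes, 10 lay within that range, 18 below it and 6 above it. The 6 above it were *Acot11*, *Cpt1b*, *Acot1*, *Acaa2*, *Hadhb* and *Acadvl*. Of these, *Acot1* entered the test only through its BAT samples. *Cpt2*, *Mlycd* and *Acot2* lay just under its lower end.

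In the comparison of eWAT with BAT, most members were again higher in BAT. With the row length as an offset, so that reads per length were compared, 26 of the 34 tested members were called higher in BAT and 2 lower, against 34.0% and 39.9% of the 18383 symbols tested. At least a 2-fold higher level in BAT was called for 23 members, against 20.2% of all symbols. The members' median log2 fold change (BAT minus eWAT) was 1.98 and that of all symbols -0.08. With reads per gene and no length offset, 29 were called higher and 2 lower, against 34.7% and 35.6% of all symbols. The 26 members higher in BAT were called higher in both fits. The share of all symbols called higher in both fits is not given here. *Acot1*, 1 of the 26, passed the filter on reads only through its BAT samples. On the RPKM scale with limma (pseudocount 0.1), the split was 23 higher and 9 lower, against 3262 and 11515 of the 18383 symbols. The median of all symbols was then shifted to -0.71. On that scale, the same median was -0.24 for BAT minus iWAT. When the eWAT samples of mice 14 and 15 were left out, 25 were called higher in BAT and 3 lower, against 6172 and 6890 of 18133 symbols. All 6 tested macrophage genes were called higher in eWAT than in BAT, and their part in the members' differences was not tested.

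*Cpt1b* was between 0.541 and 0.904 RPKM in eWAT (53 to 80 reads), and its log2 fold change (BAT minus eWAT) was 8.54 ± 0.18. *Cpt1a* had 12.2, 17.5 and 32.1 RPKM in eWAT, above every BAT sample, with -2.92 ± 0.21 (adjusted p = 4.7e-10) and -2.48 without the length offset. It was the only member called higher in eWAT in both fits. *Acot11* had 8.33 ± 0.62, *Acaa2* 4.70 ± 0.12 and *Acadvl* 4.17 ± 0.14 as log2 fold changes. *Eci2* was called in both fits with opposite directions, at -0.41 ± 0.10 with the length offset and 0.96 without it. *Hadh* was higher in BAT by 0.32 ± 0.14 with the offset, and its adjusted p of 0.044 rose above 0.05 when the eWAT sample of mouse 7, 8 or 15 (0.068, 0.097 and 0.089), the BAT sample of mouse 6, 7 or 8, or the iWAT sample of mouse 13 or 15 was left out, and with the mice as a block (0.094). *Acsl1* was not called (-0.37 ± 0.18, adjusted p = 0.069), but was called lower in BAT without the eWAT sample of mouse 15 (-0.49) or of mouse 7 (-0.45), or the BAT sample of mouse 8 (-0.48). The highest *Cpt1a* of the eWAT samples, 32.1 RPKM, was in the macrophage-rich sample of mouse 15.

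Between the 2 white depots the answer rested on how row length was handled. With the length offset, 15 members were called higher in iWAT and 11 higher in eWAT, against 24.2% and 28.3% of all symbols. Without it, 21 were higher in iWAT and 2 in eWAT, against 13.4% and 12.3%. On the RPKM scale with limma (pseudocount 0.1) the split was 7 to 16, against 985 and 8676 of the 18383 symbols. The members' median log2 fold change (iWAT minus eWAT) was 0.23 with the offset and 0.44 without it, and that of all symbols was 0.04 and 0.00. All 6 tested macrophage genes were called higher in eWAT than in iWAT with the offset, and their part in these differences was not tested. Among the 10 members whose merged row was at most 1.1 times as long as the eWAT row, the median was 0.80 with the offset and 0.44 without it. Among the 11 tested members whose merged row was over 2 times as long, it was -0.71 with the offset and 0.41 without it.

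**Figure D5:**
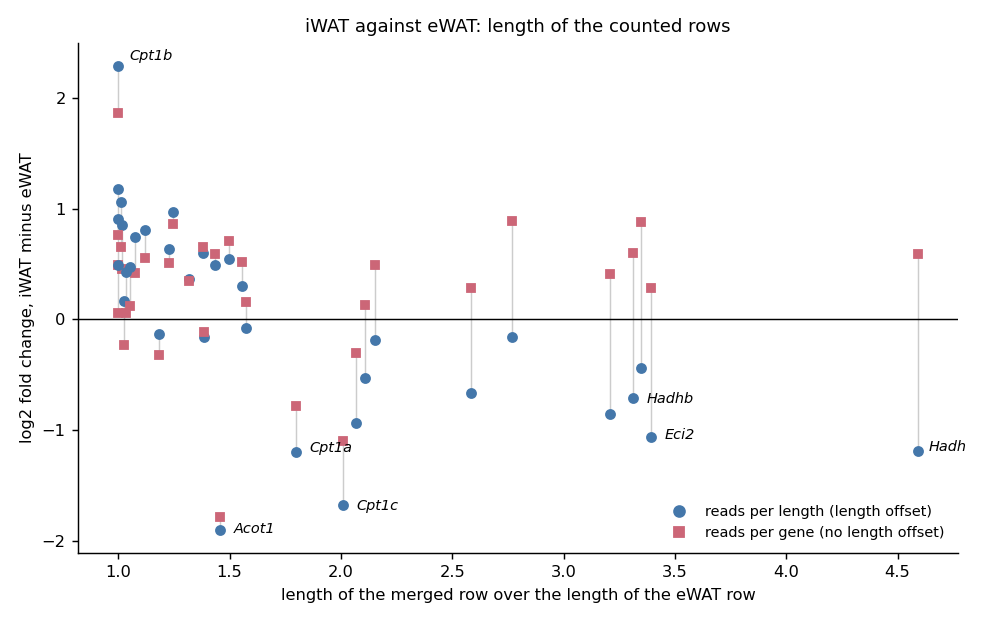
Log2 fold change (iWAT minus eWAT, vertical axis) of the 34 tested genes against the length of the merged row over that of the eWAT row (horizontal axis), with the length offset (circles) and without it (squares), joined per gene. With the offset, the 11 genes with a ratio over 2 all lie below 0, and without it 9 of them lie above 0.

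Members that were called in the same direction on both footings numbered 14. The share of all symbols called in the same direction on both is not given here. Those called higher in iWAT in both were 12: *Cpt1b*, *Cpt2*, *Crat*, *Acadvl*, *Acadl*, *Acadm*, *Acads*, *Acaa2*, *Eci1*, *Decr1*, *Etfb* and *Acot2*. Those called higher in eWAT in both were *Cpt1a* and *Cpt1c*. *Cpt1b* was higher in iWAT by 2.29 ± 0.14 with the offset and 1.87 ± 0.14 without it, and every iWAT sample was above every eWAT sample. *Cpt1a* was lower in iWAT, with -1.20 ± 0.20 with the offset and -0.79 ± 0.20 without it. *Hadhb*, *Hadh*, *Echs1*, *Eci2*, *Etfa* and *Etfdh* were called in opposite directions, such as *Hadh* with -1.19 ± 0.14 and 0.59 ± 0.13. *Acot1* was called higher in eWAT with the offset (-1.90 ± 0.65), but not without the eWAT sample of mouse 15 (-0.92, adjusted p = 0.15) or with the mice as a block (-1.47, adjusted p = 0.10). *Acot11* was not called with all samples (0.75 ± 0.51) and was called higher in iWAT without that sample (1.53, adjusted p = 0.0064). *Acsl3* was called higher in iWAT with the offset (0.49 ± 0.20, adjusted p = 0.047), and lost the call without any 1 of the iWAT samples of mice 11, 12, 13 and 15, the eWAT samples of mice 7, 11, 13 and 14 and the BAT samples of mice 6 and 12. *Acad10* gained a call without the iWAT sample of mouse 12 (0.37) or the eWAT sample of mouse 11 or 14, and *Acot9* without the iWAT sample of mouse 14 (-0.24).

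Rows that were identical in all files avoid the question of length, but only 5 members have one. In that fit, *Eci1* was higher in iWAT than in eWAT by 0.53 ± 0.15 (adjusted p = 0.024) and *Acot2* by 0.79 ± 0.13 (adjusted p = 0.00027). *Acsl3* (0.09 ± 0.20), *Acsl5* (-0.37 ± 0.25) and *Acot1* (-1.78 ± 0.65) were not called. For *Eci1*, *Acsl3* and *Acot2*, whose row is the same in the main comparison, the offset fit gave 0.91, 0.49 and 1.18 and the fit without it 0.49, 0.06 and 0.76. All 5 were called higher in BAT than in iWAT and than in eWAT on these rows.

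Within a depot, the members differed in how much they varied between mice. *Hadhb* was between 34.6 and 37.4 RPKM in the 6 BAT samples, while *Acot11* and *Acsl5* spanned 32.2 to 114 and 17.2 to 54.3 RPKM. The BAT sample of mouse 6 had the highest *Acot11* and *Acsl5* of all BAT samples, and that of mouse 11 had the lowest of both. In eWAT, the sample of mouse 15 had the lowest RPKM of 18 members, *Acadvl*, *Acadm* and *Acsl1* among them. It had the highest of 6 members, which were *Cpt1a*, *Acsl4*, *Acsl5*, *Acot1*, *Acot9* and *Acot11*. The adipocyte gene list was lowest in the same sample, at 8905 RPKM in sum against a median of 15680 in eWAT. In iWAT, the sample of mouse 15 had the lowest *Cpt1b* (1.67 RPKM) and also the lowest *Ucp1* (0.494 RPKM). The brown adipocyte genes were mixed in that sample. *Elovl3* was lowest there too (0.0615 RPKM), but *Dio2* (0.652 RPKM), *Cidea* (17.1 RPKM), *Ppargc1a* (1.38 RPKM) and *Cox7a1* were not. The part of cell composition in these values was not tested.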

How the data were processed

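RNA was sequenced in 18 samples (6 per depot, n = 6). The authors extracted RNA, made libraries with the NEBNext Ultra RNA kit, mapped reads to mm9 and used the Genomatix Genome Analyzer. The submitters' processing notes name cutadapt (1.16) and HISAT2 (2.1.0). The counting tool, annotation, strand setting and treatment of reads with several places are not given in the sources used here. The authors deposited raw counts of reads and, beside them, RPKM, in which the count is divided by row length and by the sample's total reads. Columns of normalized expression other than these were not used. Reads carry no molecular identifiers, so limits from counts cover counting error only.

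Depot labels gave the groups. The members and gene lists were chosen with earlier results of these data known, and all 35 members are named or counted. Rows that reached 10 reads in 6 or more samples were tested with edgeR 4.0.16 (R 4.3.3), using TMM factors, glmQLFit and glmQLFTest, with Benjamini-Hochberg adjustment over all rows tested and a threshold of 0.05. The comparison of iWAT with BAT used merged rows of those 12 samples. Comparisons with eWAT used 1 row per symbol in all 18 samples, with the most-read eWAT transcript and the row length as an offset. The *Cpt1b* to *Cpt1a* ratio was tested by exact permutation (two-sided). Alternatives used DESeq2 1.42.0, limma 3.58.1 on log2(RPKM + 0.1) and log2(RPKM + 1), other scaling, filters and eWAT rows, the mouse as a block, and each sample left out. Shared sequence was found as 31-base words of GENCODE vM1 transcripts in mm9. The scripts were tested on simulated data. Samples came from different mice within a depot. The same mouse number in 2 depots was read as the same animal (4, 4 and 5 shared mice for iWAT and BAT, eWAT and BAT, and iWAT and eWAT). Deviations of same-numbered samples from their depot means correlated little, with a mean r of 0.03, -0.05 and -0.12 in these comparisons.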

Additional observations from a re-analysis of the deposited data

Results flagged for a closer look

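Among 111 sets of 6 samples (members, the *Cpt1b* to *Cpt1a* ratio and the LOC100504946 row in each depot), 13 held a sample whose gap to its nearest neighbour was, as a share of the range of its set, above Dixon's critical value at the 95% level. About 5.5 such sets are given by chance alone, so part of these are unremarkable.

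Of the 13, 4 were in the eWAT sample of mouse 15, which was rich in macrophage genes. There *Acot11* was 1.1 RPKM, against 0.187 to 0.237 in the other eWAT samples. *Acot1* was 1.78 RPKM, against 0.133 to 0.51. *Acsl4* was 11.1 RPKM, against 6.18 to 7.87. The log2 ratio of *Cpt1b* to *Cpt1a* was -5.62, against -4.66 to -4.34.

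In BAT, the sample of mouse 8 stood above the others in 3 members. *Crat* was 97.9 RPKM, against 82.0 to 84.5. *Acad11* was 31.1 RPKM, against 18.9 to 22.4. *Acsl3* was 8.69 RPKM, against 4.34 to 5.26. The BAT sample of mouse 12, rich in skeletal muscle genes, had *Acsl6* at 0.104 RPKM, against 0 to 0.0071.

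In iWAT, *Cpt1b* was 1.67 RPKM in mouse 15, against 2.56 to 3.06. *Acad9* was 3.79 RPKM in mouse 11, against 4.47 to 4.81. *Echs1* was 35.2 RPKM in mouse 14, against 27.9 to 30.2. *Acsl6* was 0.00918 RPKM in mouse 7, from 3 reads, and 0 in the other iWAT samples. In eWAT, *Etfb* was 165 RPKM in mouse 13, against 81.9 to 112.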

How the results depend on the processing

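Of the 717 values of the 34 tested members in the comparison of iWAT with BAT under the alternatives, 700 kept their direction and their side of the threshold, 6 lost the call, 11 gained it and 0 changed direction with a call. Sign changes of members called on neither side were not counted as changes of direction. The count of called members was 30 to 32 when 1 sample was left out (29 higher in BAT each time) and 32 with the mice as a replicate block. Rows called higher in BAT then numbered 6070 to 6700 of 19121 to 19389, and 5865 of 19733 with the block. The count of called members was 5 on the rows identical in all files, where only 5 members could be tested. All 5 were higher in BAT, against 1781 of 5733 identical rows. With no TMM factors, and with limma at either pseudocount, the count of called members was 34 (29 higher and 5 lower in BAT). Of all 19733 rows, 4732 were then called higher and 9107 lower with no TMM factors, and 4856 and 9086 with limma on log2(RPKM + 0.1). For eWAT against BAT, the count of called members was 27 or 28 with 1 sample left out (25 or 26 higher in BAT). It was 27 with the block (25 higher) and 5 on identical rows (5 higher). Symbols called higher in BAT numbered 5856 to 6343 of 18006 to 18338 with 1 sample left out. With the block they numbered 5793 of 18383, and 1866 of the 5733 identical rows were called higher. For iWAT against eWAT, the count of called members was 25 to 27 with 1 sample left out (14 to 16 higher in iWAT). It was 25 with the block (15 higher), 2 on identical rows (2 higher), and 8 at 2-fold or more (3 higher). Symbols called higher in iWAT numbered 4113 to 4577 of 18006 to 18338 with 1 sample left out. With the block they numbered 3740 of 18383, and 372 of the 5733 identical rows were called higher. At 2-fold or more, 4.84% of all symbols were called higher in iWAT and 13.4% higher in eWAT. Members higher in iWAT fell to 7 with no TMM factors, where 942 of the 18383 symbols were called higher in iWAT. They also fell to 7 with limma on log2(RPKM + 0.1) or log2(RPKM + 1), where 985 and 953 symbols were. The block changed no call of a member other than those of *Acsl1*, *Hadh* and *Acot1* given above. With samples paired by mouse, the *Cpt1b* to *Cpt1a* log2 ratio differed by 7.72 (BAT minus iWAT), 11.1 (BAT minus eWAT) and 3.54 (iWAT minus eWAT). Each adjusted p was 0.125 in an exact sign-flip permutation, in which 4 or 5 pairs cannot reach 0.05. With 1 sample left out, these differences were 7.82 to 8.09, 11.2 to 11.5 and 3.27 to 3.60.

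Changes of direction arose in the comparisons with eWAT alone. For BAT minus eWAT, *Hadh* and *Echs1* turned to -0.42 and -0.067 with no TMM factors and to -0.38 and -0.038 with limma at either pseudocount. *Acad11*, *Eci2* and *Acsl1* turned to 0.59, 0.96 and 0.70 with no length offset, and to 5.11, 5.24 and 2.50 with the eWAT transcript closest in length. For iWAT minus eWAT, *Decr1* and *Mlycd* turned to -0.065 and -0.0057 with no TMM factors and to -0.16 and -0.36 with the eWAT transcript of highest RPKM, and *Decr1* to -0.051 and -0.050 with limma at the 2 pseudocounts. With no length offset, *Acad12*, *Hadha*, *Hadhb*, *Hadh*, *Echs1*, *Eci2*, *Etfa*, *Etfdh* and *Acsl1* turned to 0.13, 0.49, 0.60, 0.59, 0.88, 0.28, 0.29, 0.41 and 0.89. With the transcript closest in length, *Acad11*, *Hadhb*, *Hadh*, *Echs1*, *Eci2*, *Etfa*, *Etfdh* and *Acsl1* turned to 4.26, 3.61, 1.23, 0.74, 4.62, 8.57, 1.51 and 2.73. Another row choice changes the reads and the length that are compared. Reads on the closest-length transcripts are not given here, and the causes of these changes of direction were not tested. Low counts limit *Acot1*, *Cpt1c* and *Acsl6*.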

Other observations

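Genes around the pathway also differed between eWAT and the other depots. Of 7 regulators, 6 were called higher in BAT than in eWAT and 1, *Ppard*, lower (-0.88 ± 0.15 on the log2 scale). *Ppara* had a log2 fold change (BAT minus eWAT) of 5.48 ± 0.23, *Pdk4* of 5.40 ± 0.33, *Ppargc1a* of 4.54 ± 0.38 and *Esrra* of 1.55 ± 0.11 (± SE, length offset). Without the offset these were 5.16, 5.25, 4.18 and 2.69. Between the white depots, *Pdk4*, *Ppargc1a* and *Ppara* were higher in iWAT, with log2 fold changes (iWAT minus eWAT) of 2.22 ± 0.28, 1.84 ± 0.35 and 1.39 ± 0.19. *Esrra* was lower in iWAT, at -0.79 ± 0.11 with the length offset, and higher at 0.33 ± 0.11 without it. *Slc25a20*, the acylcarnitine carrier, was higher in BAT than in eWAT by 2.22 ± 0.14 with the offset and 3.09 ± 0.14 without it. *Acacb* was higher in BAT than in eWAT by 4.58 ± 0.32 and higher in iWAT than in eWAT by 1.03 ± 0.28, whereas *Acaca* was higher in BAT than in eWAT by 2.31 ± 0.34 and was not called between the white depots (0.25 ± 0.33, adjusted p = 0.55).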
